A study of Mus musculus with 27 samples.

Results

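The 51 genes described here take part in copying DNA or in separating the copied chromosomes at cell division. They were chosen by name from what is known of the cell cycle, with earlier results of these data known. Of them, 24 were for DNA replication and entry into S phase (the replication or S-phase genes) and 27 for mitosis (the mitotic genes). All 51 were found among the 37991 genes of each expression profile. The measurements were made on calvarial osteoblasts, cells of the flat bones of the skull vault, of newborn mice aged 5 to 9 days, of the strain C57BL/6J-Col3.6 CFP. Every library came from this 1 strain with no treatment contrast. The groups were days 2, 4, 6, 8, 10, 12, 14, 16 and 18 of differentiation, each taken here as 1 library. Day and library thus cannot be told apart. The transgene drives cyan fluorescent protein from a fragment of the collagen type I promoter, active in cells of the osteoblast lineage and in other cells that make this collagen. The digested cells grew for 4 days, were sorted for the fluorescent protein, and were returned to medium with ascorbic acid and beta-glycerol phosphate, which drives matrix formation and mineral deposition.

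A cell that divides passes through S phase, in which the DNA is copied, and through mitosis, in which the copies are parted. Transcription factors of the E2F family switch on replication genes around the start of S phase, and the mitotic genes follow later under complexes that include B-Myb and Foxm1. In bone cells grown in culture, expansion of precursors comes first and the making and mineralizing of matrix follows, so that the transcripts of these genes mark the cells that still cycle.

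The promoters of both groups are shown first, because the mitotic and the replication genes are known to carry different control letters near their start sites. RefSeq promoter windows of 300 bases, from 250 bases before to 50 after the start (assembly GRCm38.p6), were at hand for 41 of the 51 genes. The windows were searched on both strands for the E2F letters TTCCCGC or TTGGCGC as well as TTCGCGC or TTGCCGC, for the cell cycle homology region TTTGAA or TTCGAA, and for CCAAT. Neighbouring E2F matches can overlap each other. The 4 windows below were chosen after the letters had been searched: Mcm6 had the most E2F matches, Rrm2 had the lowest fitted change among the replication genes, Cdk1 held both kinds of letters, and Ccnb2 held the homology region beside its start. Capitals mark the E2F and homology region letters on either strand, and each sequence runs 5′ to 3′ along the gene.
Mcm6 (chr1:128359656-128359955, minus strand): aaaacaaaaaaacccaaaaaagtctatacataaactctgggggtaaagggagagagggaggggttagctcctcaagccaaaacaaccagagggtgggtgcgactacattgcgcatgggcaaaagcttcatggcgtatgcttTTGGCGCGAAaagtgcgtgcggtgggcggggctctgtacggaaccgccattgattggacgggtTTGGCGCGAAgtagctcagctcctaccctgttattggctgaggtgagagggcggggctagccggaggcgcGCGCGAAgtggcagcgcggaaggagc
Rrm2 (chr12:24708004-24708303, plus strand): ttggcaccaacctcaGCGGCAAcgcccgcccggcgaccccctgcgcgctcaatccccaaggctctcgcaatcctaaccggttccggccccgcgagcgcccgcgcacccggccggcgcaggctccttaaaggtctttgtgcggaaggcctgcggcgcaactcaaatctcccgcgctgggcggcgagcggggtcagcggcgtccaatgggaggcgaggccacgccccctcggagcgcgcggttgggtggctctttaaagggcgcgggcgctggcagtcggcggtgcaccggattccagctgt
Cdk1 (chr10:69352863-69353162, minus strand): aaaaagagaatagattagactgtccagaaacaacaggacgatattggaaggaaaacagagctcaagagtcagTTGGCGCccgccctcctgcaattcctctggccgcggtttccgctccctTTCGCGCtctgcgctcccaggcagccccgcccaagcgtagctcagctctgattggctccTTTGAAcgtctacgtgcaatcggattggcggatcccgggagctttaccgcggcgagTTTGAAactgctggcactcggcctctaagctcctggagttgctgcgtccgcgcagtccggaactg
Ccnb2 (chr9:70421505-70421804, minus strand): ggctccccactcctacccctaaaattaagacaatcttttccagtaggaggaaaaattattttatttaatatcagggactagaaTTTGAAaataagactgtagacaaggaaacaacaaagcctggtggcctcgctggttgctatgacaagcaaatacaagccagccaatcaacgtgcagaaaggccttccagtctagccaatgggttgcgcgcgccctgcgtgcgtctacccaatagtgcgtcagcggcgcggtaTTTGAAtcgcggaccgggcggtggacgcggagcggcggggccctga
Counted from the start site, the E2F letters of Mcm6 begin at -109, -106, -46, -43 and 25. Those of Cdk1 begin at -178 and -130, and its homology region letters at -71 and -15. The homology region letters of Ccnb2 begin at -167 and 5, with CCAAT at -87, -54 and -21.

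E2F letters were present in the windows of 13 of 19 replication genes (68.4%), of 3 of 22 mitotic genes (13.6%) and of 10.9% of the 27025 genes in the promoter table. The homology region letters had the opposite distribution, in 5 of 19 replication genes (26.3%) and 17 of 22 mitotic genes (77.3%), against 21.7% of all genes. CCAAT was present in 68.4% of the replication genes, 90.9% of the mitotic genes and 41.1% of all genes. The median GC content of the windows was 58.0% for replication genes, 60.7% for mitotic genes and 52.7% for all. A window with both E2F and homology region letters was found in 2 mitotic genes, Cdk1 and Mki67, and in 2 replication genes, Mcm7 and Rfc3. These were 9.09% of the mitotic and 10.5% of the replication genes, against 1.36% of all genes. Birc5, Ccne1, E2f1, Nusap1 and Tyms were among the genes whose windows held neither. A match describes the letters of a window and does not show that a factor binds there.

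Each day had 3 profiles from 3 sequencing lanes with 1 barcode. Over genes with whole-number counts, the lanes of a day agreed within sampling noise (chi-square per degree of freedom 0.999 to 1.02). They were summed to 1 library per day and counted as 1 sample. The labels number these profiles as replicates 1 to 3 and the paper describes them as triplicates, but nothing in the sources used here ties them to separate cultures. Taken as 1 sample a day, they leave 9 libraries and no replicate of a day. Totals ran from 22470195 estimated counts on day 10 to 62009157 on day 12, and the lowest count of any of the 51 genes in a library was 30, for Cenpw on day 18. Gene positions below are those of the NCBIM37 annotation, an earlier build than that of the promoter windows. Levels are given as counts per 1000000 (CPM) after scaling each library by its upper quartile. Counting intervals given below cover counting error only. Of the 51 genes, 29 had whole-number counts in all 27 profiles, and for the others RSEM, the authors' quantification program, had divided reads that match several genes or transcripts. Gins2, Tyms and Kif20a had no profile with a whole-number count. Of the osteoblast markers, Col1a1, the main collagen of bone, and Runx2, the osteoblast lineage factor, stood at 4963 and 180 CPM on day 2. Bglap and Dmp1, made by mature osteoblasts and osteocytes, stood at 0.117 and 0.0935 CPM. Sp7 and Alpl, further osteoblast markers, stood at 49.8 and 13.8 CPM on day 2 and at 4.54 and 0.676 on day 6. The cells had been sorted through a collagen type I promoter, so that Col1a1 is not an independent check of the cell type.

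The first question was whether the 51 genes changed from day 2 to day 18, and nearly all of them fell. In a straight line in day, fitted to 15659 genes and tested by edgeR (quasi-likelihood test, Benjamini-Hochberg adjustment), 50 of the 51 genes fell at an adjusted p under 0.05 and 0 rose. Among all genes tested, 26.1% fell and 28.3% rose. The line put the median log2 change between days 2 and 18 at -2.34 over the 51 genes and 0.05 over all genes tested. The exception was Rfc3, a subunit of the clamp loader, with -0.75 (standard error 0.33, adjusted p = 0.0761 from edgeR). A curve in day (natural spline with 3 degrees of freedom) placed 50 of the 51 genes lower on day 18, against 27.3% of all genes tested lower and 31.7% higher, and here the exception was Cenpw, with an adjusted p of 0.0682 from edgeR. With no replicate of a day, these p-values measure the scatter of single libraries around the line or curve, and scatter around the line includes any bend in the course. The data are levels of RNA in a culture, in which fewer cycling cells and less of these transcripts per cell cannot be told apart.

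**Figure D1:**
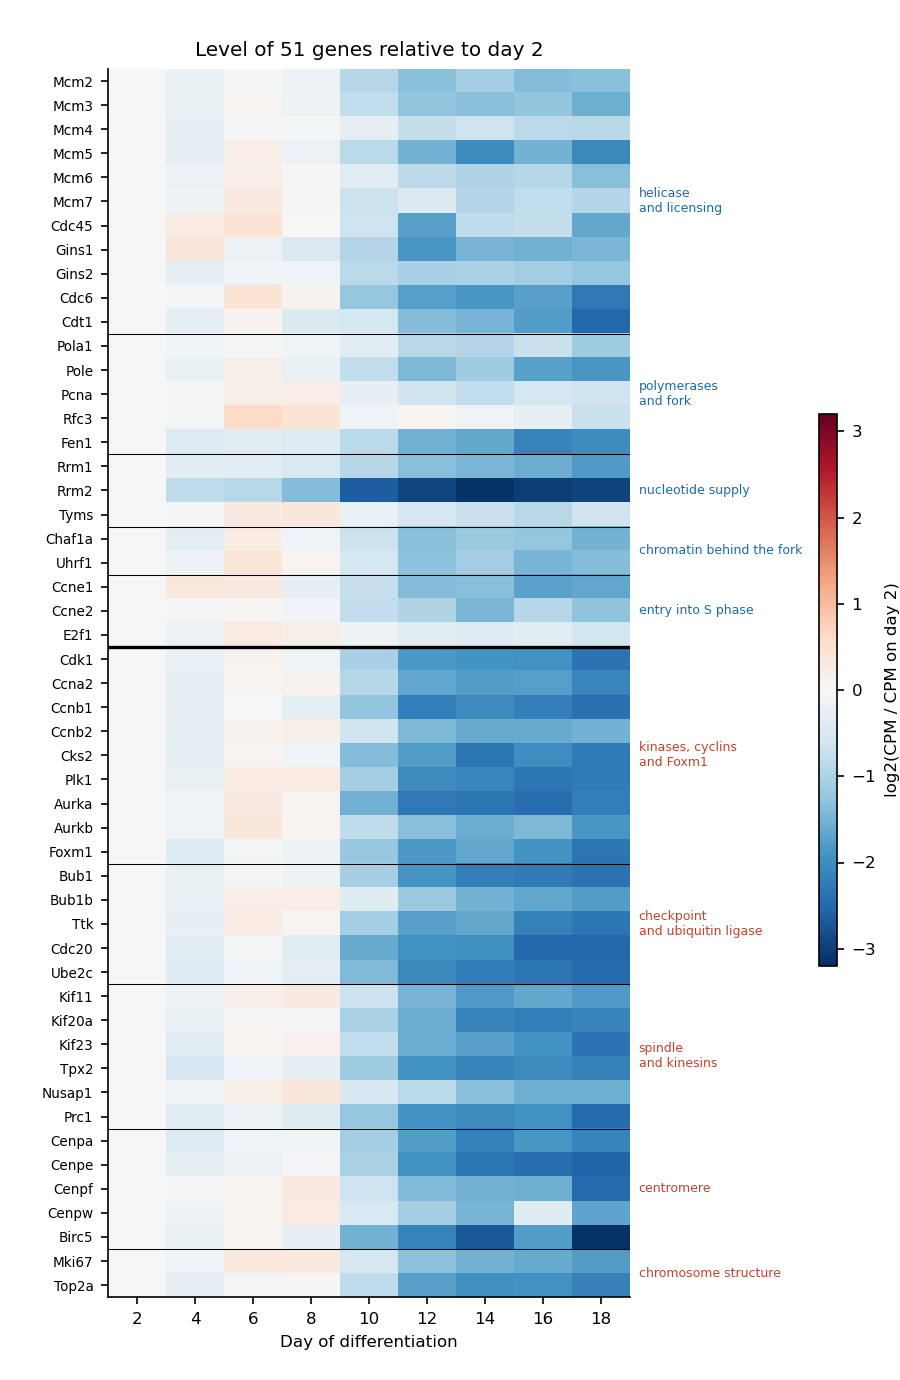
Level of each of the 51 genes (rows, ordered by role) in the 9 libraries (columns, day of differentiation), as the log2 ratio of CPM to the day 2 CPM on a colour scale from blue (lower) to red (higher). Apart from Rrm2, the rows stay pale through day 8, and they turn blue from day 10, with Birc5 and Rrm2 among the darkest on day 18 at 11.2% and 12.8% of their day 2 CPM.

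Among the replication genes, 23 of 24 fell, with a median fitted log2 change of -1.77 and a range from -3.21 to -0.65. Of the 24, 11 form or load the replicative helicase (Mcm2 to Mcm7, Cdc45, Gins1, Gins2, Cdc6 and Cdt1), and all 11 fell, with a median of -1.79. Gins2 (ENSMUSG00000031821, chromosome 8 from 123102533 to 123113204 on the minus strand), a subunit of the GINS complex of the helicase, had the highest mean TPM of that role, at 100.1 transcripts per 1000000, a unit that accounts for gene length. From day 2 to day 18 in order, Gins2 stood at 74.6, 62.4, 68.4, 67.6, 41.1, 36.1, 36.8, 34.2 and 31.6 CPM. The 4 earliest libraries were all above the 5 later ones, and the fitted log2 change was -1.37 (standard error 0.19, adjusted p = 0.000217 from edgeR). Cdt1, which licenses origins, and Cdc6, which loads the helicase, had 17.7% and 20.5% of their day 2 CPM left on day 18. Mcm4 and Mcm7 kept 53.8% and 52.6%, and their lowest libraries stayed above 0.5 of the day 2 level.

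Polymerase and fork genes changed least, with 4 of 5 past the threshold and a median of -1.18. Pcna (ENSMUSG00000027342, chromosome 2 from 132074898 to 132079050 on the minus strand), the sliding clamp that holds the polymerase on DNA, stood at 74.4, 71.9, 84.7, 86.9, 62.3, 47.7, 42.9, 50.6 and 47.4 CPM. Its highest library was day 8 and its lowest day 14, and the fitted log2 change was -0.93 (standard error 0.23, adjusted p = 0.00533 from edgeR). Rfc3 (ENSMUSG00000033970, chromosome 5 from 152445331 to 152453817 on the minus strand) stood at 5.99, 5.83, 9.18, 8.13, 5.55, 6.34, 5.56, 4.99 and 3.63 CPM. Day 6 was its highest library and day 18 its lowest, and the libraries of days 10 to 16 overlapped those of days 2 and 4. With each day left out the change of Rfc3 ran from -1.06 without day 2 (adjusted p = 0.0311 from edgeR, the single such run past the threshold) to -0.46 without day 18 (adjusted p = 0.305 from edgeR). Fen1, which trims the ends of lagging strand fragments, and Pole, the leading strand polymerase, had larger changes of -2.24 and -2.14.

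The 3 genes of nucleotide supply all fell, with a median of -1.89. Rrm2 (ENSMUSG00000020649, chromosome 12 from 25393106 to 25399011 on the plus strand) encodes the small subunit of ribonucleotide reductase, whose level limits the making of deoxynucleotides. It stood at 186, 107, 101, 70.9, 30.1, 24.3, 21.2, 23.2 and 23.8 CPM. Rrm2 was at its highest on day 2, already lower on days 4 to 8, and lowest on day 14. It was the single gene of the 51 at or below 0.5 of its day 2 CPM by day 8, and its fitted log2 change was -3.21 (standard error 0.38, adjusted p = 0.000105 from edgeR). Its partner Rrm1, the large subunit, kept 28.4% of its day 2 CPM on day 18, and Tyms, which makes thymidylate, kept 64.3%.

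Both genes of chromatin assembly behind the fork fell, Chaf1a, a histone chaperone subunit, with a log2 change of -1.76, and Uhrf1, which helps copy DNA methylation, with -1.90. Uhrf1 (ENSMUSG00000001228, chromosome 17 from 56442744 to 56462909 on the plus strand) stood at 38.1, 34.1, 49.7, 40.8, 26.0, 15.4, 17.7, 13.6 and 14.7 CPM. All 5 libraries from day 10 on lay below the 4 before them. The 3 genes of entry into S phase fell, with a median of -1.51. Ccne2 (ENSMUSG00000028212, chromosome 4 from 11118498 to 11131926 on the plus strand), a cyclin that activates Cdk2 before S phase, stood at 14.9, 14.2, 15.2, 14.0, 8.66, 7.68, 5.41, 7.99 and 6.13 CPM. Its fitted log2 change was -1.51 (standard error 0.27, adjusted p = 0.000909 from edgeR), with days 10 to 18 all below the earlier libraries. E2f1 (ENSMUSG00000027490, chromosome 2 from 154385143 to 154395628 on the minus strand), a transcription factor for S phase genes, stood at 11.9, 10.4, 14.4, 13.5, 10.5, 9.28, 8.88, 9.49 and 7.90 CPM. The value of day 10 lay above that of day 4, so that earlier and later libraries of E2f1 overlapped. Its fitted log2 change was -0.65 (standard error 0.21, adjusted p = 0.0261 from edgeR), the smallest of the 51, and was not past the threshold without the day 14 library (-0.62, adjusted p = 0.0518 from edgeR) or the day 18 library (-0.56, adjusted p = 0.0944 from edgeR).

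All 27 mitotic genes fell, with a median fitted log2 change of -2.66 and a range from -3.24 to -1.45. The 9 kinases, cyclins and the transcription factor Foxm1 had a median of -2.77. Ccna2 (ENSMUSG00000027715, chromosome 3 from 36463788 to 36471072 on the minus strand), the cyclin of S phase and early mitosis, had the highest mean TPM of these 9 and stood at 101, 82.3, 105, 110.0, 53.9, 31.9, 29.1, 29.7 and 23.7 CPM. The 4 early libraries lay between 82.3 and 110.0 CPM and the 5 later ones at 53.9 CPM or less, and the fitted log2 change was -2.49 (standard error 0.38, adjusted p = 0.000407 from edgeR). Aurka (ENSMUSG00000027496, chromosome 2 from 172181690 to 172196035 on the minus strand), a kinase of the spindle poles, stood at 17.5, 16.1, 21.4, 18.5, 6.0, 3.60, 3.49, 3.27 and 3.84 CPM. Between day 8 and day 10 Aurka had the largest step of the 51 genes, a log2 difference of -1.62. The fitted log2 change of Aurka was -3.14 (standard error 0.55, adjusted p = 0.000872 from edgeR). Cdk1 and Ccnb1, the kinase and cyclin that start mitosis, kept 19.3% and 19.1% of their day 2 CPM on day 18, and Ccnb2 kept 35.2%.

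The 5 genes of the spindle checkpoint and of the ubiquitin ligase that ends mitosis had the lowest median of any role, at -2.89. Ube2c (ENSMUSG00000001403, chromosome 2 from 164595398 to 164604322 on the plus strand), the ubiquitin-conjugating enzyme of the anaphase-promoting complex, stood at 67.9, 50.6, 61.7, 55.9, 25.6, 16.3, 14.3, 13.5 and 12.2 CPM. Each library from day 10 on lay below 0.5 of the day 2 value, and the fitted log2 change was -2.91 (standard error 0.35, adjusted p = 0.000113 from edgeR). Cdc20, which activates the same complex, kept 17.6% of its day 2 CPM on day 18, and the checkpoint genes Bub1, Ttk and Bub1b kept 19.6%, 20.1% and 29.0%.

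The 6 spindle and kinesin genes had a median of -2.60. Tpx2 (ENSMUSG00000027469, chromosome 2 from 152673700 to 152721057 on the plus strand), which builds spindle microtubules and activates Aurka, stood at 144, 99.6, 137, 120.0, 65.9, 38.5, 33.1, 35.4 and 32.3 CPM. The 4 early libraries did not overlap the later 5, and the fitted log2 change was -2.54 (standard error 0.35, adjusted p = 0.000219 from edgeR). Prc1, which bundles the central spindle, kept 18.2% on day 18, and Nusap1, which binds spindle microtubules, kept 33.9%.

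The 5 centromere genes had a median of -2.64. Birc5 (ENSMUSG00000017716, chromosome 11 from 117710565 to 117717069 on the plus strand), the survivin subunit of the chromosomal passenger complex, stood at 23.1, 20.0, 24.1, 19.1, 8.02, 5.21, 3.49, 6.63 and 2.59 CPM. Day 16 lay above days 12, 14 and 18, and the fitted log2 change was -3.24 (standard error 0.50, adjusted p = 0.000417 from edgeR), the largest fall of the 51. Cenpw (ENSMUSG00000075266, chromosome 10 from 29915817 to 29920346 on the minus strand), a histone-fold protein of the inner kinetochore, had the lowest mean TPM of the 51 genes, at 2.14, and 30 to 109 counts per library. It stood at 2.27, 2.03, 2.38, 2.74, 1.62, 1.07, 0.811, 1.74 and 0.707 CPM. The day 16 library of Cenpw stood above those of days 10, 12, 14 and 18. The fitted log2 change of Cenpw was -1.45 (standard error 0.50, adjusted p = 0.0314 from edgeR), and it was not past the threshold without the day 6, day 14 or day 18 library (adjusted p of 0.0581, 0.0612 and 0.117 from edgeR).

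Both genes of chromosome structure fell. Mki67 (ENSMUSG00000031004, chromosome 7 from 142881471 to 142908062 on the minus strand), which coats mitotic chromosomes and encodes the proliferation marker Ki-67, stood at 285, 263, 358, 354, 196, 115, 100.1, 92.7 and 82.8 CPM. Its highest libraries were days 6 and 8, about equal to each other, and every later library was lower than the one before it. The fitted log2 change was -2.34 (standard error 0.40, adjusted p = 0.000734 from edgeR). Top2a (ENSMUSG00000020914, chromosome 11 from 98854257 to 98885503 on the minus strand), the topoisomerase that untangles sister chromatids, stood at 206, 173, 202, 209.8, 117, 61.7, 52.6, 53.5 and 45.8 CPM. Its 4 early libraries lay between 172.8 and 209.8 CPM, all the later ones at 117.1 CPM or less, and the fitted log2 change was -2.63 (standard error 0.37, adjusted p = 0.000253 from edgeR).

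**Figure D2:**
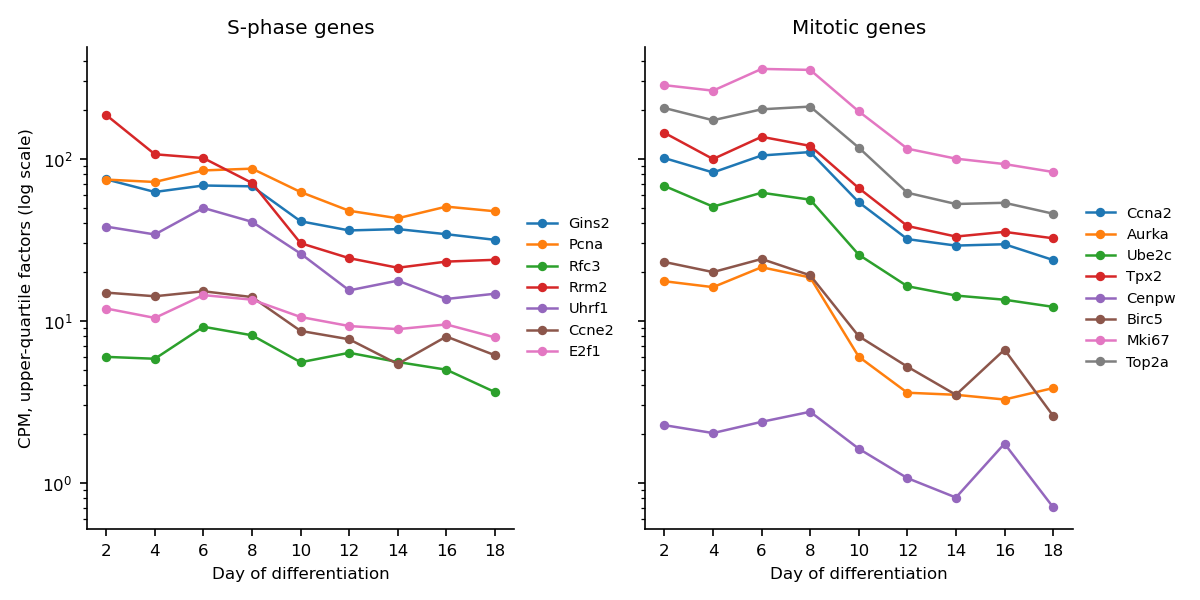
CPM on a log scale (y axis) against day of differentiation (x axis) for the 15 genes described by library, replication genes on the left and mitotic genes on the right, with 1 point per library and no error bar because each day is 1 library. The mitotic lines run level to day 8 and drop together by day 12, from 354 to 115 CPM for Mki67, while Rrm2 declines from 186 CPM on day 2 to 70.9 CPM on day 8 and E2f1 stays between 7.90 and 14.4 CPM.

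**Figure D3:**
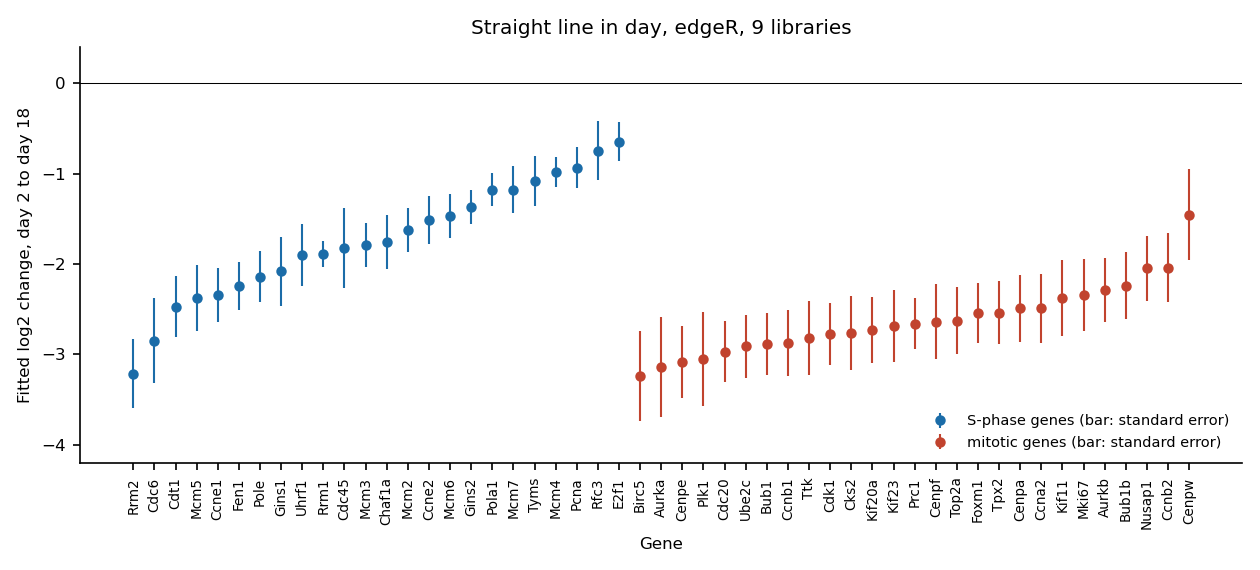
Fitted log2 change from day 2 to day 18 (y axis, straight line in day over 9 libraries) for each of the 51 genes (x axis), replication genes in blue and mitotic genes in red, with bars for the standard error. All points lie below 0, from -3.24 for Birc5 to -0.65 for E2f1, and the mitotic points other than Cenpw lie below -2.

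The second question was when the levels came down. With 1 library per day no single step can be tested, and differences in log2 CPM between neighbouring days are given as a description. The step from day 8 to day 10 had the largest median difference, -0.84 over the 51 genes against 0.02 over all genes. On day 10, 51 of 51 genes were lower than on day 8, against 47.7% of all genes. In this step 36 of the 51 genes were at least 1.5-fold lower, against 12.2% of all genes. The step from day 10 to day 12 followed, with a median of -0.65. Of the 51 genes 49 were lower, against 50.1% of all genes, and 31 were at least 1.5-fold lower, against 7.98%. Mcm7 and Rfc3 were the 2 genes that were higher on day 12 than on day 10.

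The steps before day 8 and after day 12 were small. The 3 steps up to day 8 had median differences of -0.23, 0.31 and -0.14, so that the level of day 6 was close to that of day 2. At least 1.5-fold lower in these steps were 1, 0 and 0 genes, against 7.13%, 6.65% and 8.46% of all genes. The 3 steps after day 12 had medians of -0.13, -0.05 and -0.19, with 0, 0 and 5 genes at least 1.5-fold lower, against 7.90%, 7.00% and 9.29% of all genes. No gene had its highest library after day 8. Days 2, 4, 6 and 8 held the highest library of 15, 2, 23 and 11 genes. The day of the highest library was not counted over all genes, so these counts have no background share.

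The day 8 to day 10 step was the largest fall for 35 of the 51 genes, against 15.3% of all genes, and the day 10 to day 12 step for 14. The remaining 2, Birc5 and Cenpw, had it from day 16 to day 18, after the high day 16 library. The day 10 library was the shallowest, and for 49 of the 51 genes the ratio of the day 10 to the day 8 share of counts was below 1 over its whole 95% exact counting interval. This interval was not computed for the other genes, so the count of 49 has no share over all genes beside it. Mki67 had a ratio of 0.554 (95% exact interval 0.535 to 0.574) and Pcna of 0.717 (95% exact interval 0.672 to 0.765). The intervals of Gins1 and Cdt1 included 1, with ratios of 0.716 (95% exact interval 0.474 to 1.07) and 0.939 (95% exact interval 0.725 to 1.21).

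**Figure D4:**
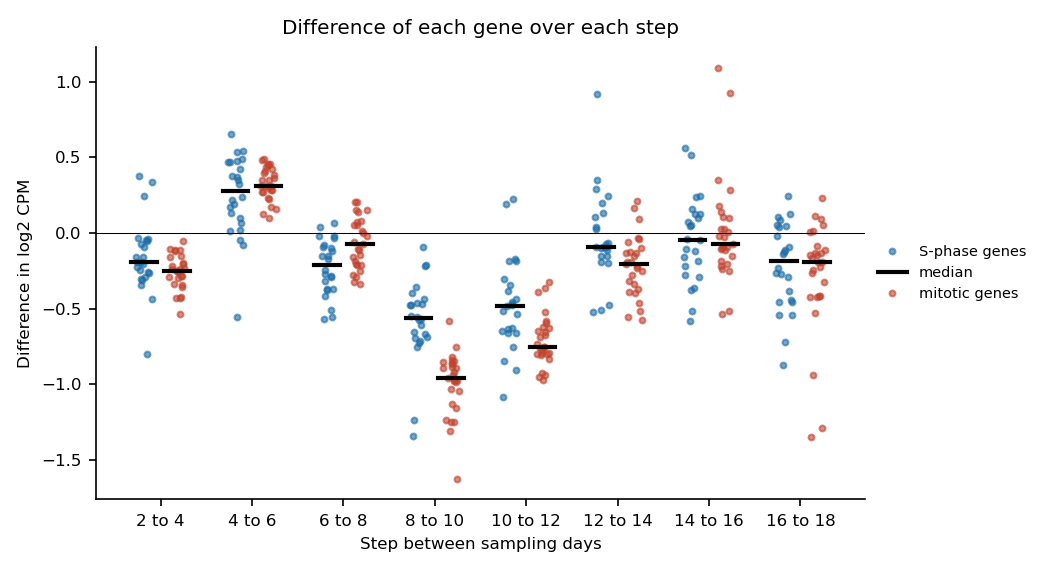
Difference in log2 CPM between neighbouring sampling days (y axis) for each of the 8 steps (x axis), with 1 point per gene, replication genes in blue, mitotic genes in red and black bars for the medians. All 51 points lie below 0 from day 8 to day 10, where the medians are -0.56 and -0.96, and the medians of the last 3 steps lie between -0.20 and -0.04.

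Measured against day 2, 1 gene (Rrm2) stood at or below 0.5 of its day 2 CPM by day 8, and 17 genes were first seen there on day 10. Days 12, 14 and 18 added 23, 2 and 2. By day 12 this made 41 of the 51 genes, against 20.2% of all genes, and 45 on any day, against 26.9% of all genes. The 6 that did not reach it were Mcm4, Mcm7, Pcna, Rfc3, Tyms and E2f1, all on the replication side. Summed over the 51 genes, CPM on days 4 to 18 were 83.0%, 100.6%, 95.5%, 54.5%, 35.2%, 32.0%, 31.1% and 27.04% of the day 2 sum. The fall of these transcripts thus lay between day 8 and day 12, with no sampled day on which they were near 0.

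The third question was whether replication and mitotic genes moved alike. The step from day 8 to day 10 had a median of -0.56 over the replication genes and -0.96 over the mitotic genes, and 10 of 24 replication genes were at least 1.5-fold lower against 26 of 27 mitotic genes. At or below 0.5 of their day 2 CPM for the first time on day 10 were 16 mitotic genes and 1 replication gene, Cdc6. By day 12 it was 26 of 27 mitotic genes and 15 of 24 replication genes. The replication genes split evenly over the 2 large steps, with 12 having their largest fall from day 8 to day 10 and 12 from day 10 to day 12, while 23 of 27 mitotic genes had it in the earlier step.

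The distance between the groups widened from day 10 to day 14 and did not widen further. Relative to day 2, the median log2 level of replication and mitotic genes was -0.72 and -1.03 at day 10 and -1.32 and -1.77 at day 12. It was -1.41 and -2.25 at day 18. On days 10, 12, 14, 16 and 18 the medians lay 0.31, 0.45, 0.84, 0.69 and 0.84 apart. Median shares of the day 2 CPM left on day 18 were 37.5% and 21.0%. In sums of CPM, the ratio of mitotic to replication transcripts was 1.86, 1.92, 2.09, 2.32, 1.80, 1.41, 1.27, 1.27 and 1.19 from day 2 to day 18 in order. The ratio thus climbed to its highest on day 8 and was lowest on day 18. Between day 2 and day 8 the replication sum went from 976 to 802 CPM and the mitotic sum from 1813 to 1862 CPM. Abundant genes weigh most in these sums. Over these days Rrm2 went from 186 to 70.9 CPM, Rrm1 from 191 to 137 CPM and Mki67 from 285 to 354 CPM. The climb of the ratio thus rests largely on these genes, and the ratio without them was not computed. The median log2 level on day 8, relative to day 2, was -0.14 for replication genes and 0.03 for mitotic genes. Leaving out Ccne1, Ccne2 and E2f1, which act before S phase, left the replication median of the line at -1.79. Since the 2 groups were chosen with these data known, their difference carries no p-value, and their ranges overlapped, with Cenpw at -1.45 and Rrm2 at -3.21.

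**Figure D5:**
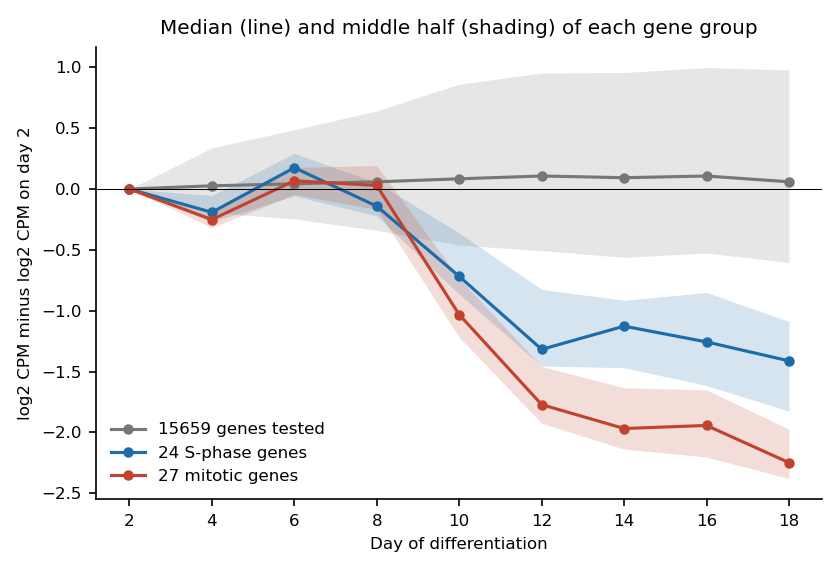
Median log2 CPM relative to day 2 (y axis) by day of differentiation (x axis) for the 24 replication genes (blue), the 27 mitotic genes (red) and the 15659 genes tested (grey), with shading from the lower to the upper quartile of the genes. The lines part after day 8 and end at -1.41, -2.25 and 0.06 on day 18.

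Stages of 3 libraries each, days 2 to 6, 8 to 12 and 14 to 18, were compared in edgeR. From the early to the late stage 49 of the 51 genes fell, against 24.4% of all genes, and the others were Rfc3 (-0.57, adjusted p = 0.0806 from edgeR) and Cenpw (-1.03, adjusted p = 0.0745 from edgeR). From the early to the middle stage 4 of the 51 genes fell, Rrm2, Rrm1, Ccne1 and Gins1, against 13.6% of all genes. An unadjusted p under 0.05 was seen for 21 of the 51 there, and for 43.9% of all genes, rises and falls counted together. The median log2 change was -0.64 over the 51, all of them below 0, against 0.06 over all genes tested. The middle stage joins the high day 8 library to the lower days 10 and 12. Without day 8 the count was 46, against 18.1% of all genes, and without day 10 it was 0, against 5.26%. Without day 4 or day 12 it was 1, against 7.27% and 5.69%, and without day 2, 14 or 16 it was 2, against 7.44%, 11.5% and 11.8%. Without day 6 it was 4 and without day 18 it was 3, against 14.3% and 12.0%. DESeq2 gave 16, against 16.9% of all genes.

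From the middle to the late stage 0 of the 51 genes passed the edgeR threshold, against 0% of all genes, although 45 of the 51 and 2557 of the 15659 genes had an unadjusted p under 0.05. DESeq2 called 25 of the 51 lower in this contrast, against 1.69% of all genes. Without the day 12 library edgeR called 31, against 1.46% of all genes, and limma on TPM called 0 of the 51. The counts of both contrasts with the middle stage thus changed with the library left out and with the tool, while the early to late contrast gave 47 to 50 calls with any 1 day left out.

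The other genes of the same pathways, from lists that hold no gene of the 51, moved the same way at the line. Of 26 other replication genes 23 fell, against 26.1% of all genes tested, with a median log2 change of -1.54. The largest changes were those of Dbf4, which activates the kinase that fires origins, at -3.33, and Clspn, a fork checkpoint mediator, at -2.65. Pold3, Rpa2 and Dscc1 did not pass, with -0.41, -0.54 and -1.21. Of 34 other mitotic genes 33 fell, with a median of -2.43, led by Gtse1, a microtubule-associated protein, at -3.40, and Kif4, a chromosome-bound kinesin, at -2.89. Pttg1, the securin that holds back separase, had a change of -0.10 and an adjusted p of 0.708 from edgeR.

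Of 18 genes of the G1 cyclins, their kinases, the E2F factors and the Rb family, 13 fell and 1 rose. The median was -0.78, and among all genes tested 26.1% fell and 28.3% rose. The largest falls were in E2f7 and E2f8, the repressor E2Fs, at -3.25 and -2.30. Rbl2, which encodes the pocket protein p130 of resting cells, rose by 1.67 on the log2 scale (adjusted p = 4.73e-05 from edgeR) and stood at 44.5, 44.5, 47.9, 58.9, 84.3, 98.0, 104.0, 111.3 and 117.5 CPM. The largest step of Rbl2 was thus between day 8 and day 10, where the 51 genes came down. E2f2 had the next highest change in this list, 0.62, with an adjusted p of 0.373 from edgeR. Ccnd1, the G1 cyclin that answers growth signals, fell by 0.85 (adjusted p = 0.024 from edgeR), from a highest value of 910.7 CPM on day 6 to 440.4 to 474.9 CPM on days 10 to 18.

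Other cell types moved over the same days. In the line 7 of 10 osteoblast markers rose, against 28.3% of all genes tested. The summed CPM of the 10 was 5485 to 8067 on days 2 to 6 and 10848 to 13597 on days 14 to 18. Col1a1 made up most of this sum, with 4963 CPM on day 2 and 12724 on day 18. The 3 that did not pass were Alpl, Sp7 and Spp1, with log2 changes of 2.22, -1.23 and -1.17. Over 7 macrophage markers the sum was 19.1 to 42.1 CPM on days 2 to 6 and 351 to 1363 on days 14 to 18, with 6 of 7 rising, mostly through Lyz2, and Ptprc at 0.187 CPM on day 2 and 6.44 on day 18. The 5 adipocyte markers summed to 2.20 to 6.17 CPM early and 98.0 to 201.2 late, all 5 rising, with Cfd at 0 counts on days 4 and 10. The 4 endothelial markers summed to 5.28 to 10.2 CPM early and 19.3 to 26.6 late: Cdh5 and Tek rose, Kdr fell with a log2 change of -3.27 (adjusted p = 0.0249 from edgeR), and Pecam1 was too low to be tested. The part of these shifts in the levels of the 51 genes was not tested.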

How the data were processed

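The study sampled calvarial osteoblasts on 9 days, with 3 lane profiles per day. The authors aligned reads with Bowtie 0.12.9 to transcripts of NCBIM37 and estimated gene levels with RSEM 1.2.8 (versions from the submitters' processing notes). The deposited estimated counts are RSEM's expected counts, not normalized. The deposited TPM values are scaled to 1000000 per profile and divide by gene length. Complementary DNA was amplified before sequencing, so counts are not independent molecules.

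Lane counts were summed and rounded, giving 9 libraries of 22470195 to 62009157 counts. edgeR 4.0.16 in R 4.3.3 (upper-quartile factors, filterByExpr minimum count 10, quasi-likelihood test, Benjamini-Hochberg adjustment over 15659 genes, threshold 0.05) fitted a line in day, a spline and 3 stages. Steps used log2 CPM with a prior of 0.5 counts, without a test. Alternatives were TMM or no factors, DESeq2 1.42.0, other filters, limma 3.58.1 on log2(TPM + 0.5), left-out lanes or days, and 27 separate profiles. Scripts were tested on simulated data.

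Of 37991 identifiers 37205 had a symbol. Genes named by library were the highest mean TPM of each role, the 3 largest and 3 smallest fitted changes, any gene not past the line, Mki67 and Cenpw. The genes and lists were chosen with earlier results of these data known. Cdk1 and Ccna2, which also act in S phase, were counted as mitotic. Pairing was checked by correlating deviations of same-numbered profiles (mean 0.00599, against -0.00300 for different numbers), and the numbers did not pair the profiles.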

Additional observations from a re-analysis of the deposited data

How the results depend on the processing

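Over 345 recomputed changes of single genes in the line, 330 kept their direction and their side of the threshold. Another 11 lost the threshold, 4 newly passed it and 0 reversed. Medians were rated the same when they moved by less than 0.3476, the median standard error of the 51 genes. In all, 621 of 657 recomputed values were rated the same. These include counts of genes, which have no direction or threshold of their own, and many of the counts were 0 in both runs. In the straight line the count of falling genes was 49 to 50 with each lane left out and 48 to 51 with each day left out, and the step with the largest median difference ended on day 10 in each alternative run for it. From the early to the middle stage, 4 genes fell by edgeR (13.6% of all genes), against 42 (32.2%) with the 27 profiles as separate samples and no replicate block, 40 (30.9%) with the replicate block, 16 (16.9%) by DESeq2, 10 (12.8% to 12.9%) by limma on TPM with each of the pseudocounts 0.5, 0.1 and 1, and 2 (5.93%) by limma with no filter. Leaving out each lane gave 3 to 5 and each day 0 to 46. From the middle to the late stage, 0 genes fell (0% of all genes), against 49 with the 27 profiles without (23.2%) and with the replicate block (21.6%), 25 (1.69%) by DESeq2, and 0 to 31 with each day left out. The lanes of a day are not biological replicates, so fits on 27 profiles use too small a spread. Among the 51 genes the block changed no call in the line. Over all genes tested, 5306 of 13835 fell without the block and 5341 of 14244 with it. The causes of the other changes were not tested. The median of the mitotic genes in the line was -2.31 by limma with a pseudocount of 1 and -3.01 to -2.54 with each day left out. At a threshold of 0.25 in place of 0.5 of the day 2 level, 25 genes were counted, against 45.

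For single genes, Rfc3 passed in the line with 27 profiles, with and without the block, and by DESeq2 (adjusted p = 0.0322 from DESeq2). E2f1 did not pass by limma on TPM (adjusted p of 0.0695 to 0.116 from limma). Cenpw did not pass by limma with no filter or without lane 2 (adjusted p of 0.0536 from limma and 0.0558 from edgeR). With 1 library per day, no step between days has a test, and 30 to 109 counts limit Cenpw.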

Other observations

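Among genes of the fixed pathway lists that the text above does not describe by library, Smc4, a condensin subunit, stood at 159.6, 126.8, 125.6, 165.3, 113.5, 95.0, 77.0, 97.5 and 100.4 CPM from day 2 to day 18, whereas its partner Smc2 stood at 111.7, 92.8, 95.9, 101.6, 47.7, 38.9, 32.1, 33.5 and 27.4 CPM. Both fell in the line by edgeR's quasi-likelihood test, with log2 changes of -0.79 for Smc4 (adjusted p = 0.0124) and -2.29 for Smc2 (adjusted p = 0.000114). Orc6, a subunit of the origin recognition complex, had a log2 change of -0.69 and Orc1, another subunit, of -2.55. These genes were chosen after their values were seen, and the differences between partners were not tested.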
